A study of Mus musculus with 12 samples.

Results

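Zscan4a, Zscan4b, Zscan4c, Zscan4d, Zscan4e and Zscan4f, together with Zfp352, Tmem92 and Dppa2, were followed by RNA-seq across naive mouse embryonic stem cells (ESCs) and their day 2 derivatives, epiblast-like cells (EpiLCs). These 9 genes were taken by symbol from the 57180 genes of the deposited tables, and all 9 passed the filter of 10 counts over all libraries. Because the Zscan4 copies share most of their sequence, their counts were also added into a single value, called the Zscan4 sum here.

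The 12 libraries came from E14 mouse ESCs, a male line, and fell into 4 groups of 3. All of them carried a dCas9-based repressor that doxycycline (DOX) switches on, placed at the Tigre locus in a line grown from 1 chosen clone. The Neg line held scramble guide RNAs, and the 3×KD line held guide RNAs against Pcx, Me1 and Me2, whose enzymes connect pyruvate with oxaloacetate and malate. Guides and line go together, so knockdown cannot be told apart from other differences between these lines. What is called the effect of 3×KD here is the difference between them. The study describes growth under low oxygen. Its sequencing methods name DMSO or DOX, its description of the expression data names DOX, and the labels name neither, so DOX is taken here for all libraries. ESCs stayed in 2i and LIF, and EpiLCs were moved to FGF2, activin A and a WNT-pathway inhibitor for the final days. The 4 groups were therefore Neg ESCs, 3×KD ESCs, Neg EpiLCs and 3×KD EpiLCs. Libraries were grouped by their titles, since another label assigns every library of a line to a single state. The study's methods describe biological triplicates in general, without saying how the sequenced replicates were grown apart, so p-values measure the spread between these libraries.

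In the mouse embryo the Zscan4 genes, Zfp352 and Tmem92 belong to the burst of transcription at the 2-cell stage. Zscan4 proteins carry a SCAN domain and zinc fingers and are known for protecting telomeres. In ESC cultures they are switched on transiently in a small share of cells, called 2-cell-like cells, in which the homeobox factor DUX activates a set of genes and repeats. Zfp352 encodes a zinc finger protein and Tmem92 a transmembrane protein, both used as markers of that state. DPPA2, with its partner DPPA4, binds DNA in pluripotent cells and acts upstream of Dux. In bulk RNA, more cells in that state and more RNA per such cell cannot be told apart.

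Total estimated counts lay between 11221023 and 19652197 per library. The targeted genes were lower in 3×KD cells, with log2 fold changes in ESCs of -1.14 (Pcx), -0.89 (Me1) and -0.95 (Me2), and in EpiLCs of -1.05, -1.05 and -0.98. The 7 naive markers examined summed to between 3637 and 3766 CPM (counts scaled to library size, normalized by TMM) in Neg ESCs and to between 282.6 and 294.5 CPM in Neg EpiLCs, and the 7 EpiLC markers moved the opposite way, from between 431.0 and 442.0 CPM to between 3674 and 4070 CPM. The 3×KD libraries stood at less extreme sums in both states for the naive markers (2573 to 2616 CPM in ESCs, 365.7 to 380.8 CPM in EpiLCs). In EpiLCs the 7 naive markers did not move as a set. By the limits given below, 3 were called higher and 1 lower in 3×KD EpiLCs, with a median log2 fold change of 0.05. Nr0b1 stood at 19.33 CPM in 3×KD EpiLCs and at 34.62 CPM in Neg EpiLCs.

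The 6 Zscan4 copies lie on chromosome 7 of GRCm39 between positions 10528169 and 11136668, a stretch of 608 kb. Zscan4a (10528169 to 10532984), Zscan4b (10633618 to 10638977), Zscan4d (10895301 to 10900111) and Zscan4e (11039241 to 11044609) are on the minus strand. Zscan4c (10739648 to 10744474) and Zscan4f (11131842 to 11136668) are on the plus strand. The GENCODE vM39 annotation calls Zscan4a a transcribed pseudogene and the other 5 protein-coding. Another 4 rows, Zscan4-ps1 to Zscan4-ps4, lie between and beyond the copies, up to position 11717839. Despite their names, the annotation calls Zscan4-ps1, Zscan4-ps2 and Zscan4-ps3 protein-coding, and Zscan4-ps4 alone a pseudogene. Zfp352 is on chromosome 4 (90107057 to 90113939, plus strand), Tmem92 on chromosome 11 (94668043 to 94673529, minus strand) and Dppa2 on chromosome 16 (48124105 to 48140618, plus strand), next to Dppa4 (48104062 to 48114896). In the order Zscan4a to Zscan4f, Zfp352, Tmem92 and Dppa2, the gene identifiers are ENSMUSG00000110097, ENSMUSG00000095339, ENSMUSG00000054272, ENSMUSG00000090714, ENSMUSG00000095936, ENSMUSG00000070828, ENSMUSG00000070902, ENSMUSG00000075610 and ENSMUSG00000072419.

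How alike the copies are decides how far their rows can be read apart, so a stretch of 60 coding bases is shown from each copy. It covers coding positions 706 to 765 of Zscan4c, the gap-free stretch of that length in which the copies differed most. Capitals mark bases that differ from Zscan4c.
Zscan4a: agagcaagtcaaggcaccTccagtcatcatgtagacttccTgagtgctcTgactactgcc
Zscan4b: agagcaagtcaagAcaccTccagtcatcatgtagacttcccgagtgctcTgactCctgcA
Zscan4c: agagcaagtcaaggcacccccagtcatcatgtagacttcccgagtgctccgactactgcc
Zscan4d: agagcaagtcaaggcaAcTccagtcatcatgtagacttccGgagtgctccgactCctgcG
Zscan4e: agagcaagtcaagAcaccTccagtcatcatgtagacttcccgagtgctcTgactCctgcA
Zscan4f: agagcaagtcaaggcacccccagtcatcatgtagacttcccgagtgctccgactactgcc
Zscan4c and Zscan4f were identical here, Zscan4a differed at 3 bases, and Zscan4b, Zscan4d and Zscan4e each differed at 5. Zscan4b and Zscan4e carried the same letters. Over all 1521 bases of the Zscan4c coding sequence with its stop codon, identity was 99.6% for Zscan4f, 98.2% for Zscan4a, 97.7% for Zscan4d and Zscan4e, and 97.6% for Zscan4b. Of all 75-base stretches in the transcripts of a row, 60.5% were found in no other gene for Zscan4d, 56.0% for Zscan4e, 49.1% for Zscan4a, 21.4% for Zscan4c, 17.1% for Zscan4b and 13.7% for Zscan4f. In contrast, between 90.4% and 99.1% were found in no gene outside the Zscan4 rows. The same measure was 97.1% for Zfp352, 99.2% for Tmem92 and 80.1% for Dppa2. Counting only stretches found in none but the 6 copies, and not in the Zscan4-ps rows, the share was 85.6% for Zscan4e, 74.5% for Zscan4b, 69.0% for Zscan4d, 55.6% for Zscan4a, 26.7% for Zscan4c and 18% for Zscan4f. The split of reads among copies is therefore uncertain, above all for Zscan4b, Zscan4c and Zscan4f, and the sum, to which Zscan4f gives the most reads, can also exchange reads with the Zscan4-ps rows.

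The 250 bases before the start sites are shown for Zscan4c and Zscan4b, as examples of the copies, and for Dppa2 and Zfp352. The start site of each gene was that of its transcript with the highest TPM over all libraries, and other start sites were not examined. For Dppa2 it lay inside the gene, which begins at position 48124105, and for Zscan4f it was that of a transcript of 521 bases. Capitals mark the letters TGATT and ATCA with any 2 bases between them, which resemble the site that DUX is known to bind, and the letters TATAAA of a TATA box, each searched on both strands. Neither motif overlapped the other.
Zscan4c (chr7:10739422-10739671, plus strand): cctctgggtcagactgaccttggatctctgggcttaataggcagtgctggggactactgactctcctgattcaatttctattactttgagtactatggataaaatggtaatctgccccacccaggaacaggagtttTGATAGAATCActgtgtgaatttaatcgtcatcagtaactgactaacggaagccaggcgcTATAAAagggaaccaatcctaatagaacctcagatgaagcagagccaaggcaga
Zscan4b (chr7:10638955-10639204, minus strand): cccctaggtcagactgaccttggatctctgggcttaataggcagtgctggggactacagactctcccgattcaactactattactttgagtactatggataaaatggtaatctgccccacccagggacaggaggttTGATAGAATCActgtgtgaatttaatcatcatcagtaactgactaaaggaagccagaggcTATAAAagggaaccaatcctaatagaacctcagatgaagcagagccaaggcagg
Dppa2 (chr16:48130590-48130839, plus strand): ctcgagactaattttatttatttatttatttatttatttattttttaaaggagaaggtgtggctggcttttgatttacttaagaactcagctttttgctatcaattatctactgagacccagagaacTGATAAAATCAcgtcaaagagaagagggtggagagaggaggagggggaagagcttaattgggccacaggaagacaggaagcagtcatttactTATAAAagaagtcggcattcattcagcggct
Zfp352 (chr4:90106807-90107056, plus strand): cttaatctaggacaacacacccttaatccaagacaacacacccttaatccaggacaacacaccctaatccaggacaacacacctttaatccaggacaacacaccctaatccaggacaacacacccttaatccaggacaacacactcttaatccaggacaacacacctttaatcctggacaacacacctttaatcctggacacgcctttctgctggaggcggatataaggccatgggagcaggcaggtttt
All 6 copies had the DUX-like letters, read on this strand as TGATAGAATCA, beginning 114 bases before the start site in Zscan4a to Zscan4e and 110 in Zscan4f. Dppa2 had TGATAAAATCA at 123 bases, and neither Zfp352 nor Tmem92 had a match. Of 57036 start sites in the annotation, 0.195% had such letters in this window and 16.069% had TATAAA. The upstream windows of the other 5 copies were between 93.6% and 96.5% identical to that of Zscan4c. A match in letters is a description and does not show binding.

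The first question was whether these genes differed between the 3×KD and Neg lines in the naive state. Most of them differed little. The Zscan4 sum was 509.6, 522.3 and 546.4 CPM in Neg ESCs and 614.6, 593.9 and 612.0 CPM in 3×KD ESCs. Every 3×KD library was above every Neg library, but the step was small, at 1.15-fold (log2 fold change 0.21 ± 0.042 SE, n = 3 per group, adjusted p = 0.00079, edgeR quasi-likelihood test). A call required an adjusted p below 0.01 and an absolute log2 fold change above 0.58, and the sum did not reach that fold. Of the 9 genes, 2 were called, against 15.3% of the 25446 genes tested (8.5% higher and 6.76% lower).

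The gene with the largest change in ESCs was Zfp352, and it was lower. It stood at 12.41, 11.97 and 14.53 CPM in Neg ESCs and at 4.608, 7.073 and 5.814 CPM in 3×KD ESCs. The groups did not overlap, and the log2 fold change was -1.16 ± 0.144 (SE, adjusted p = 5.3e-06, edgeR). The other call was Zscan4b, at 20.39, 22.64 and 24.27 CPM against 36.12, 28.6 and 36.65 CPM. Its log2 fold change of 0.58 ± 0.099 (adjusted p = 0.00014, edgeR) lay on the limit, and the call was lost with RLE factors, with library size alone, with filterByExpr, with only the ESC groups in the fit, and without Neg ESC replicate 1 (0.52), 3×KD ESC replicate 1 (0.56) or 3×KD ESC replicate 3 (0.52). The other copies had log2 fold changes from 0.02 for Zscan4d to 0.39 for Zscan4a. Tmem92 overlapped between the groups (log2 fold change -0.08 ± 0.078, adjusted p = 0.47, edgeR; 95% interval -0.23 to 0.07).

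In EpiLCs the Zscan4 cluster differed strongly between the lines. The Zscan4 sum was 538.7, 480.9 and 531.5 CPM in Neg EpiLCs and 1230, 1188 and 1174 CPM in 3×KD EpiLCs. The lowest 3×KD library stood far above the highest Neg library. The sum was 2.32-fold higher (log2 fold change 1.21 ± 0.043 SE, n = 3 per group, adjusted p = 4.3e-12, edgeR). All 6 copies were called higher, while none of the other 3 genes was, so 6 of 9 genes were called against a background of 13.2% in either direction, 7.88% higher and 5.35% lower. The copies share reads, so these 6 calls are not separate results and their count overstates the contrast with that background. The genes were chosen with results of these same libraries known, so their direction is not independent evidence.

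**Figure D1:**
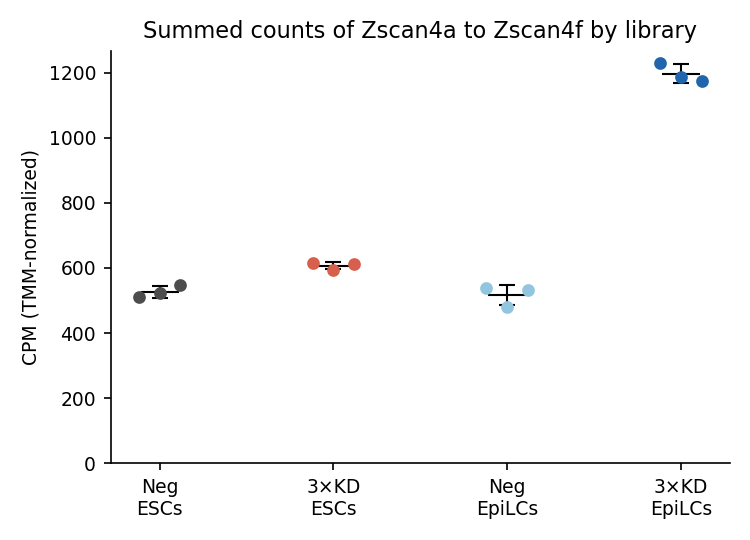
Zscan4 sum in CPM (y axis) for each of the 12 libraries (points), with the mean and SD of each group (bars). The 3×KD EpiLCs lie between 1174 and 1230 CPM, above the other 9 libraries, which lie between 480.9 and 614.6 CPM.

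Among the copies, the log2 fold change in EpiLCs ran from 1.01 ± 0.06 (SE) for Zscan4d to 1.77 ± 0.095 for Zscan4b. Zscan4f, the copy with the most reads, was at 229.2, 207.5 and 230.9 CPM in Neg EpiLCs and at 496.5, 493.0 and 475.5 CPM in 3×KD EpiLCs. Zscan4e went from 117.3, 96.18 and 113.1 CPM to 275.3, 266.5 and 278.2 CPM. Both copies were more than doubled, at 2.19-fold and 2.51-fold. Zscan4d, with 60.5% of its 75-base stretches found in no other gene, was at 71.08, 66.18 and 77.5 CPM against 157.9, 135.2 and 139.2 CPM. Zscan4b, with little private sequence, was at 21.0, 26.65 and 22.12 CPM against 78.99, 82.29 and 75.61 CPM, and Zscan4a, annotated as a pseudogene, at 29.63, 21.28 and 31.29 CPM against 70.0, 66.94 and 70.49 CPM. Zscan4c was at 70.52, 63.16 and 56.7 CPM against 151.2, 143.9 and 134.1 CPM. The groups overlapped for none of the copies, which share reads and so are not separate results. How many of all genes separate in this way was not counted.

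The share of each copy in the reads of the family stayed within a narrow range. Over the 12 libraries Zscan4f took between 39.31% and 43.44%, Zscan4e a median of 21.17% and at most 23.71%, Zscan4d between 11.38% and 14.85%, Zscan4c between 10.67% and 15.25%, Zscan4b between 3.9% and 6.93% and Zscan4a between 4.43% and 6.02%. Per length, Zscan4f also led in every group, with 167.1, 173.3, 203.3 and 389.9 TPM (estimated counts scaled by length and library total) in Neg ESCs, 3×KD ESCs, Neg EpiLCs and 3×KD EpiLCs. A short transcript of 521 bases gave a mean of 56.8% to 58.2% of the Zscan4f TPM in the groups. Zscan4e stood at 26.05, 27.4, 30.6 and 68.1 TPM, and its libraries overlapped with those of Zscan4c and Zscan4d in both ESC groups, and with those of Zscan4d in Neg EpiLCs. Zscan4a (8.33 to 22.6 TPM) and Zscan4b (9.23 to 34.4 TPM) were the lowest copies in every group, and their library values overlapped in the Neg groups. Dppa2 was at 29.2, 31.1, 65.4 and 69.1 TPM, Tmem92 at 8.73, 7.73, 12.4 and 13.3 TPM, and Zfp352, the lowest of all in each group, at 4.12, 1.82, 2.95 and 4.17 TPM.

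**Figure D2:**
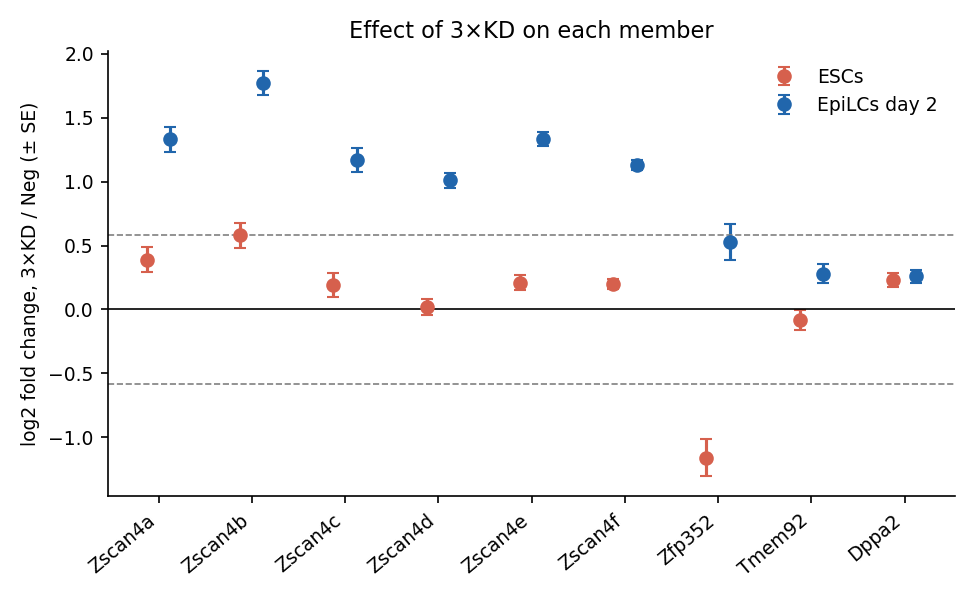
Log2 fold change of 3×KD over Neg (y axis, points, with SE as bars) for each of the 9 genes in ESCs and in EpiLCs, with dashed lines at 0.58 and -0.58. The 6 Zscan4 copies lie between 1.01 and 1.77 in EpiLCs and between 0.02 and 0.58 in ESCs, and Zfp352 lies at -1.16 in ESCs and 0.53 in EpiLCs.

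Zfp352 and Tmem92 passed the p limit but not the fold limit in EpiLCs. Zfp352 was at 8.007, 7.383 and 8.533 CPM in Neg EpiLCs and at 13.22, 10.04 and 11.3 CPM in 3×KD EpiLCs. The groups did not overlap (log2 fold change 0.53 ± 0.14 SE, adjusted p = 0.0061, edgeR). It passed the fold limit with library size alone (0.59), with transcript-length offsets (0.65) and without 3×KD EpiLC replicate 2 (0.62). Tmem92 was at 27.04, 23.89 and 24.65 CPM against 29.29, 30.63 and 31.97 CPM, a log2 fold change of 0.28 ± 0.074 (adjusted p = 0.0061, edgeR).

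The effect of 3×KD was then compared between the states directly, by the interaction term of the fit. For the Zscan4 sum it was larger in EpiLCs by 1.01 ± 0.06 (SE) on the log2 scale (adjusted p = 7.9e-09, edgeR), and for the single copies by 0.94 to 1.18. Zfp352 had the largest difference, 1.69 ± 0.201 (adjusted p = 1.8e-05, edgeR), since it fell in 3×KD ESCs and not in 3×KD EpiLCs. Altogether 7 of the 9 genes passed this test, all with a larger value in EpiLCs, against 10% of all genes (4.76% larger and 5.27% smaller). Of the 7, 6 were Zscan4 copies, which share reads and so are not separate results. Tmem92 missed it (0.36 ± 0.107, adjusted p = 0.03, edgeR). It passed with library size alone (0.43, adjusted p = 0.0091), with no filter (0.39, adjusted p = 0.0064) and without 3×KD ESC replicate 3 (0.45, adjusted p = 0.0067). For Dppa2 the difference was 0.04 (95% interval -0.11 to 0.18).

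The transition itself separated the genes further. From Neg ESCs to Neg EpiLCs the Zscan4 sum moved by -0.03 ± 0.042 (SE) on the log2 scale (adjusted p = 0.69, edgeR; 95% interval -0.11 to 0.06). No copy was called (edgeR adjusted p from 0.12 to 0.88, 0 copies at an unadjusted p under 0.05, and 0 called by DESeq2). Zfp352 was lower in Neg EpiLCs (-0.71 ± 0.14, adjusted p = 0.00048, edgeR) and Dppa2 higher (0.90 ± 0.052, adjusted p = 2.6e-10, edgeR), so 2 of 9 genes were called against 20.8% of all genes (9.78% higher and 11% lower). From 3×KD ESCs to 3×KD EpiLCs, 8 of 9 genes were called higher, against 18.7% of all genes in either direction (9.42% higher and 9.32% lower). Of the 8, 6 were Zscan4 copies, which share reads and so are not separate results. The Zscan4 sum rose by 0.98 ± 0.042 (adjusted p = 8.6e-12, edgeR), and Zfp352 by 0.98 ± 0.145 (adjusted p = 2.9e-05, edgeR). Tmem92 had a log2 fold change of 0.55, just under the limit, which it passed with upper-quartile factors (0.62), library size alone (0.58), transcript-length offsets (0.62) and without 3×KD ESC replicate 3 (0.63) or 3×KD EpiLC replicate 1 (0.58).

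Dppa2 followed the transition rather than the knockdown. It was at 84.38, 86.1 and 78.51 CPM in Neg ESCs and at 100.9, 90.6 and 99.3 CPM in 3×KD ESCs. In EpiLCs it was at 155.7, 146.2 and 162.8 CPM in Neg and at 190.7, 177.0 and 189.1 CPM in 3×KD. The 4 groups did not overlap. Under 3×KD the log2 fold change was 0.23 ± 0.053 (SE, adjusted p = 0.0023, edgeR) in the naive state and 0.26 ± 0.05 (adjusted p = 0.00044, edgeR) on day 2, both below the fold limit. The median log2 fold change of the 454 genes of chromosome 16 with at least 1 CPM was 0.30 in ESCs and 0.30 in EpiLCs, whereas that of all 14984 such genes was 0.01 in each. The part of that chromosome-wide shift in the Dppa2 values was not tested. Chromosomes 4, 7 and 11, which hold the other genes, had medians between 0.00 and 0.02 in both knockdown comparisons.

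Dppa4, the partner and neighbour of Dppa2, was at 54.58 ± 2.573 CPM (SD, n = 3) in Neg ESCs, 47.36 ± 1.331 CPM in 3×KD ESCs, 124.9 ± 1.209 CPM in Neg EpiLCs and 146.6 ± 7.547 CPM in 3×KD EpiLCs. Under 3×KD its log2 fold change went from -0.20 in the naive state to 0.23 on day 2, and the difference of 0.44 ± 0.064 passed the test (adjusted p = 0.00013, edgeR). Duxf3, the Dux gene of these tables, was low throughout. It was at 2.571, 3.579 and 3.263 CPM in Neg ESCs, 2.826, 2.012 and 3.397 CPM in 3×KD ESCs, 7.945, 6.578 and 8.976 CPM in Neg EpiLCs and 11.17, 10.17 and 10.12 CPM in 3×KD EpiLCs. It rose in the transition in both lines (1.30 ± 0.175 SE in Neg, adjusted p = 8.8e-06, and 1.93 ± 0.173 in 3×KD, adjusted p = 9.1e-08, edgeR), and was not called for 3×KD in ESCs (-0.21 ± 0.194, adjusted p = 0.44) or EpiLCs (0.42 ± 0.155, adjusted p = 0.043, edgeR). Dux is a repeated gene, so its row is uncertain.

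**Figure D3:**
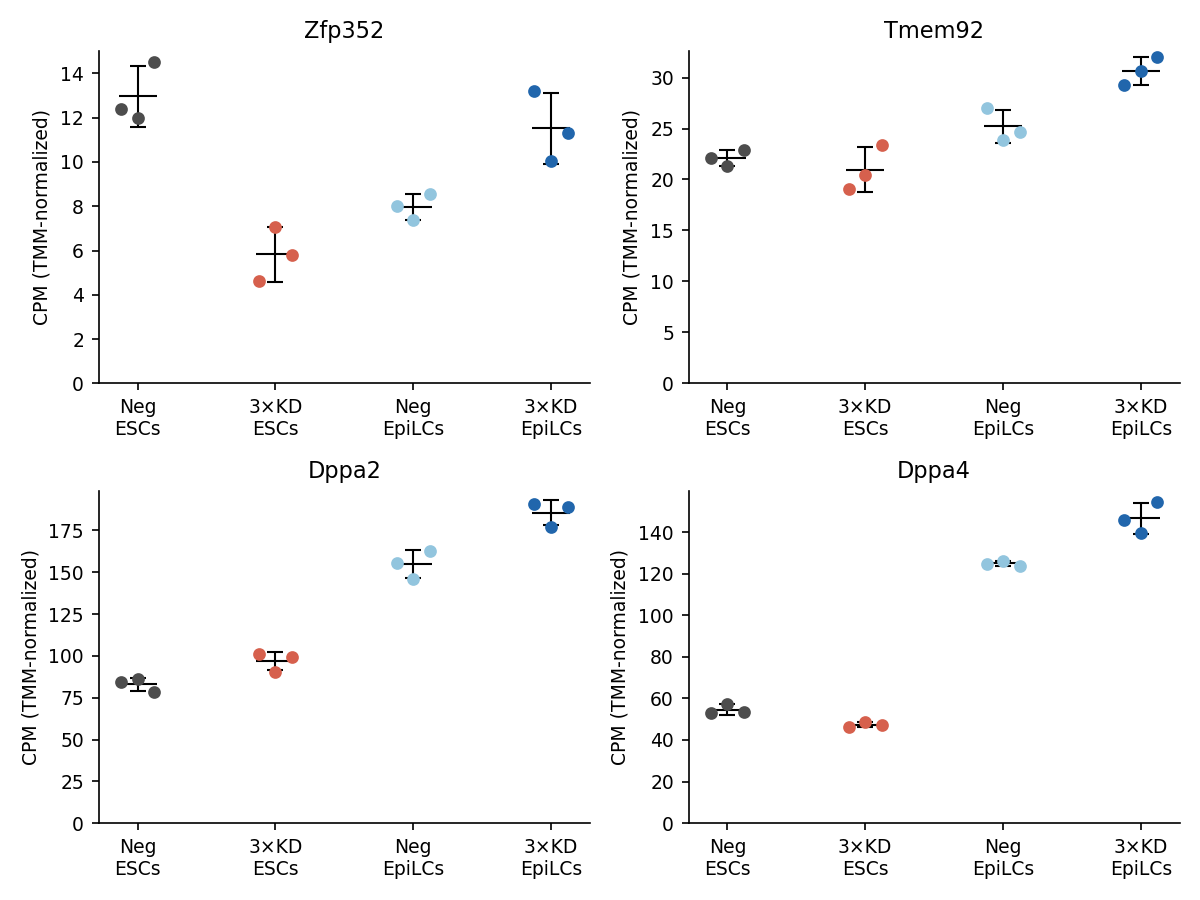
CPM (y axis) of Zfp352, Tmem92, Dppa2 and Dppa4 in each library (points), with the mean and SD of each group (bars). Zfp352 is lowest in 3×KD ESCs (4.608 to 7.073 CPM), and Dppa2 is higher in both EpiLC groups (146.2 to 190.7 CPM) than in both ESC groups (78.51 to 100.9 CPM).

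Of the 4 Zscan4-ps rows, 3 were called higher with the copies in 3×KD EpiLCs. Zscan4-ps1, Zscan4-ps2 and Zscan4-ps3 had log2 fold changes of 1.07, 1.09 and 1.08 in EpiLCs, all called, and of 0.03, -0.05 and 0.47 in ESCs, below the fold limit. Their coding identity to Zscan4c was 98.0%, 99.5% and 98.8%, so their reads cannot be parted cleanly from those of the copies. In the transition of Neg cells, in which no copy was called, Zscan4-ps1 (0.79 ± 0.086 SE, adjusted p = 7.6e-07, edgeR) and Zscan4-ps3 (0.69 ± 0.092, adjusted p = 8.1e-06, edgeR) were called higher, and Zscan4-ps2 had a log2 fold change of -0.10. With these rows and Zscan4-ps4 added, the sum changed by 1.18 in EpiLCs. Zscan4-ps4, which matched only 60.9% of that sequence, fell in both states (-1.39 ± 0.319 SE, adjusted p = 0.0021, and -1.70 ± 0.323, adjusted p = 0.00042, edgeR) from a level of 1.513 and 1.652 CPM. Of 45 other annotated genes within 100 kb of a copy, 10 could be tested. Of these, 2 were called higher in 3×KD ESCs and 4 in 3×KD EpiLCs, beside 8.5% and 7.88% of all genes. The unnamed gene ENSMUSG00000121391 rose in both states (1.25 and 1.20), from means of 2.644 and 0.6566 CPM. Gm18204 (1.16) and Gm6909 (1.38) were called in EpiLCs only, at no more than 1.404 CPM, and their difference between states did not pass the test.

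**Figure D4:**
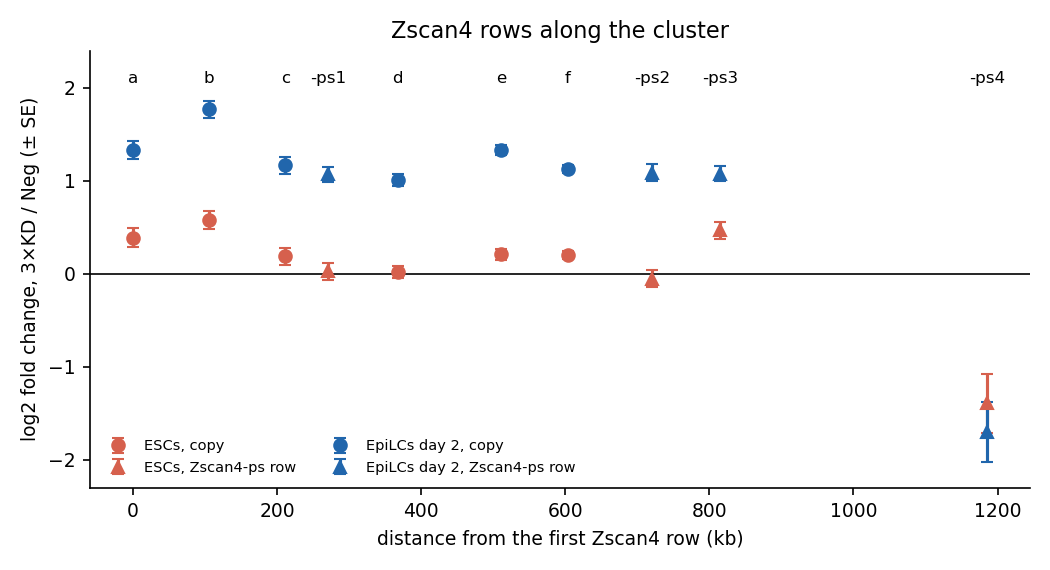
Log2 fold change of 3×KD over Neg (y axis, with SE as bars) for the 6 copies (circles) and the 4 Zscan4-ps rows (triangles), against distance in kb from the first Zscan4 row (x axis), in ESCs and EpiLCs. In EpiLCs 9 of the 10 rows lie between 1.01 and 1.77, and Zscan4-ps4, at the far end, lies at -1.70.

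Other genes of the 2-cell-like state were examined as a list of 63 names, of which 48 matched the tables and 42 could be tested. It was a list of known 2-cell-like genes that held Zscan4-ps1 to Zscan4-ps3 and Duxf3 as well. In 3×KD ESCs 12 of 42 were called lower and none higher by edgeR (0 higher by DESeq2, and 3 higher at an unadjusted p under 0.05), with a median log2 fold change of -0.34 beside 0.026 for all genes. In 3×KD EpiLCs 14 of 42, of which 3 were Zscan4-ps1 to Zscan4-ps3, were called higher and none lower by edgeR (0 lower by DESeq2, and 2 lower at an unadjusted p under 0.05), with a median of 0.45 beside 0.032 for all genes. The backgrounds were 6.76% called lower in ESCs and 7.88% called higher in EpiLCs. In all, 22 of the 42 were below 0 in ESCs and above 0 in EpiLCs, and the share of all genes with those signs was not counted. A difference between states passed the test for 17 of the 42, each larger in EpiLCs, beside 4.76% of all genes. Zscan4-ps1 to Zscan4-ps3, which share reads with the copies, were among the 17. The ESC and EpiLC comparisons use separate libraries. Many of these genes are members of repeated families, so single rows are uncertain.

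Among the genes lower in 3×KD ESCs were members of germline and early-embryo families. Tdpoz3, of a TD and POZ domain family, was at 4.875, 5.368 and 5.149 CPM in Neg ESCs and at 1.167, 1.707 and 1.176 CPM in 3×KD ESCs (log2 fold change -1.92 ± 0.196 SE, adjusted p = 5.6e-07, edgeR). Pramel7, which acts in naive pluripotency, fell by 1.82 on the log2 scale, Tdpoz4 by 1.80, the homeobox gene Lmx1a by 1.46 and Pramel6 by 0.80. Trim43a fell by 2.09, from 2.137 to 0.4981 CPM. Zfp352, described above, moved the same way in ESCs, whereas the Zscan4 copies did not.

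Among those higher in 3×KD EpiLCs, Gm6763 was at 31.84, 30.61 and 29.08 CPM in Neg and at 70.24, 66.62 and 74.43 CPM in 3×KD (1.21 ± 0.055 SE, adjusted p = 5.8e-11, edgeR). B020031M17Rik rose by 1.43 and Sp110, a nuclear body protein gene, by 1.27. B020031M17Rik was at 7.35 CPM in Neg ESCs and at 2.797 CPM in Neg EpiLCs, and stood at 7.538 CPM in 3×KD EpiLCs. Sp110 was at 15.0, 5.983 and 14.5 CPM in the same groups.

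**Figure D5:**
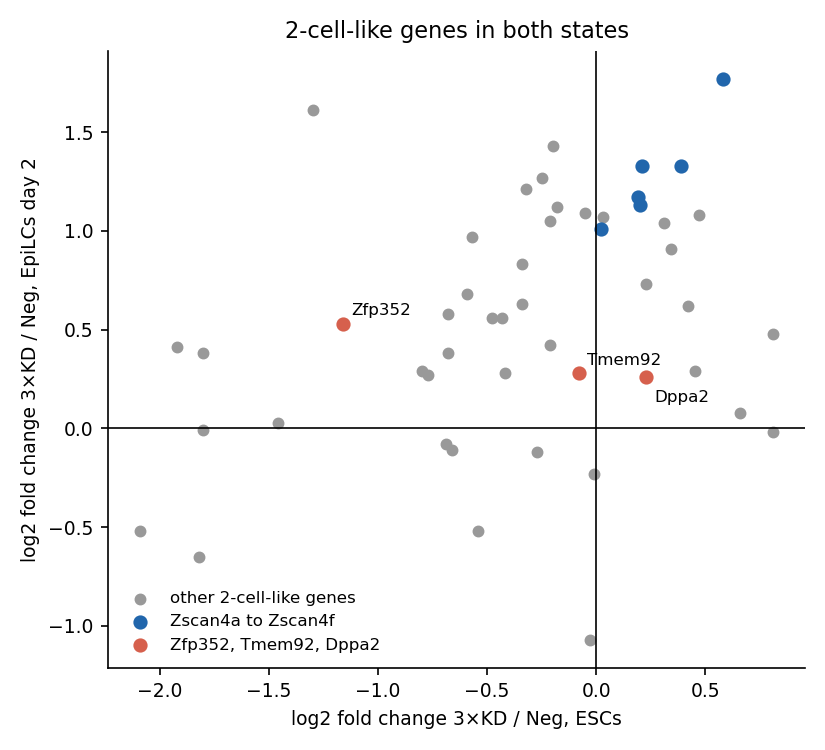
Log2 fold change of 3×KD over Neg in ESCs (x axis) and in EpiLCs (y axis) for the 9 genes (coloured points) and 41 of the 42 other 2-cell-like genes (grey points). Trim43b, at 0 in all 3×KD ESC libraries, is not drawn, and 22 of the 42 genes lie left of 0 in ESCs and above 0 in EpiLCs.

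Known repressors of the 2-cell-like state were taken as a list of 28 genes, all tested. In 3×KD ESCs 5 were called lower and none higher by edgeR (0 higher by DESeq2, and 7 higher at an unadjusted p under 0.05), and in 3×KD EpiLCs 4 were called lower and 1 higher, with medians of -0.09 and -0.18. As shares, these counts stand beside 6.76% of all genes lower in ESCs and 5.35% lower in EpiLCs. Rif1, a chromatin and telomere protein, fell from 691.1 ± 20.98 CPM (SD, n = 3) to 393.2 ± 7.262 CPM in ESCs and from 626.9 ± 20.9 to 411.7 ± 4.057 CPM in EpiLCs. Ythdc1, a reader of methylated RNA, fell by 0.82 and 0.94 on the log2 scale. Both were thus called lower in both states. Setdb1, an H3K9 methyltransferase, Max and Myc were called lower in ESCs alone, by 0.61, 0.65 and 2.10. Lin28a, an RNA-binding protein that rises in the transition, and E2f6, a repressor subunit, were called lower in EpiLCs alone, each by 0.69. Chaf1b, a histone chaperone subunit, was called higher in EpiLCs (0.64). Over all 28 genes, the difference between states passed the test with a larger value in EpiLCs for 3 and a smaller one for 6. Of all genes tested, 4.76% passed with a larger and 5.27% with a smaller value. Among the genes named above, the difference passed for E2f6 (-0.60), Lin28a (-0.59), Myc (2.38), Setdb1 (0.24) and Rif1 (0.21), but not for Ythdc1, Max or Chaf1b.

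Of 5 activators of Dux and Zscan4 (Dppa4, Tbx3, Dcaf11, Nelfa and Rarg), none was called in either knockdown comparison by edgeR or DESeq2, beside 15.3% of all genes in ESCs and 13.2% in EpiLCs, so that a count of 0 among so few genes is near the background. All 5 had an unadjusted p under 0.05 in ESCs and 2 did in EpiLCs, with changes below the fold limit. Tbx3, a naive T-box factor, fell by 4.29 in the transition of Neg cells, in which the Zscan4 sum did not move past its error. Its log2 fold change under 3×KD was -0.51 in ESCs and 0.33 in EpiLCs.

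Patterns over the 12 libraries were ranked with the Zscan4 copies and Zscan4-ps rows left out. The 6 remaining genes whose log2 CPM followed the Zscan4 sum most closely were Gng2 (Pearson r = 0.985), Rps6ka2 (0.978), Plcg1 (0.963), Klf10 (0.963), ENSMUSG00000121830 (0.961) and H2-D1 (0.957), out of 15033 genes. They are given as a description, since the libraries share 4 groups. Gng2, a G protein subunit gene, was at 25.31, 27.47, 23.63 and 43.55 CPM in Neg ESCs, 3×KD ESCs, Neg EpiLCs and 3×KD EpiLCs. Those closest to Dppa2 were Hspa4l (0.994), Mapk12 (0.993), Cthrc1 (0.993), Fndc3c1 (0.991), Epha7 (0.991) and Epha1 (0.99). Between the genes themselves, r with the Zscan4 sum was 0.762 for Tmem92, 0.654 for Dppa2 and 0.283 for Zfp352.

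Markers of other cells were compared across the same groups. The 5 trophoblast markers (Cdx2, Elf5, Gata3, Tfap2c and Hand1) summed to between 4.833 and 7.144 CPM in Neg EpiLCs and to between 10.61 and 12.35 CPM in 3×KD EpiLCs. Their sums in ESCs, between 42.28 and 54.51 CPM, were higher than in either EpiLC group. Most of each sum came from Tfap2c, at 38.78, 47.07, 3.795 and 8.817 CPM in Neg ESCs, 3×KD ESCs, Neg EpiLCs and 3×KD EpiLCs. Other markers moved differently, since Gata3 was called lower in 3×KD EpiLCs (-1.62) and Cdx2 lower in 3×KD ESCs (-2.5). The sums of the 5 primitive endoderm markers lay lower in 3×KD EpiLCs (17.65 to 19.55 CPM) than in Neg EpiLCs (23.34 to 27.81 CPM). Gata4 did not follow, at 8.557 CPM in 3×KD EpiLCs and 8.022 CPM in Neg EpiLCs. The sums of the 4 fibroblast markers were low but higher in 3×KD cells without overlap. In ESCs they lay at 4.198 to 5.407 CPM in Neg against 7.802 to 8.623 CPM in 3×KD. In EpiLCs they lay at 3.511 to 4.564 CPM in Neg against 5.62 to 7.074 CPM in 3×KD. Of these 4 genes only Thy1, a surface protein gene, was called higher in both states (0.85 and 0.77), and it gave the largest part of each sum. Col1a2 went the other way in EpiLCs, from 0.5531 CPM in Neg to 0.1466 CPM in 3×KD, and was not called. No marker was at 0 in a whole group. The 7 EpiLC markers summed to between 2138 and 2191 CPM in 3×KD EpiLCs, below Neg EpiLCs. The part of these shifts in the rise of the Zscan4 copies was not tested.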

How the data were processed

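Single-end RNA-seq of 12 libraries was used. The authors trimmed reads with Trim Galore 0.6.7, mapped them to GRCm39 with STAR 2.7.9a and quantified transcripts with Salmon 1.10.1, and deposited unnormalized estimated counts per transcript beside TPM, which take length and depth into account. The study's methods describe ribosomal RNA depletion, whereas the labels name polyadenylated RNA. Strand-aware counting is described by the library kit alone.

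Here estimated counts were summed per gene, or over Zscan4a to Zscan4f, and rounded. Those reaching 10 counts over all libraries were fitted with edgeR 4.0.16 in R 4.3.3 (TMM, quasi-likelihood, 4 groups in one fit, Benjamini-Hochberg over all 25446 genes). Calls needed an adjusted p below 0.01 and an absolute log2 fold change above 0.58, and the difference between states the p limit alone. In the fit of the sum, it replaced the 6 rows. The SE was taken from the log2 fold change and its F statistic, and CPM used TMM factors. The TPM of the authors served only for levels per length.

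Patterns were compared on log2(CPM + 0.5) for genes of at least 1 mean CPM. Sequences came from GRCm39 with GENCODE vM39, which held 99.0% of the genes. Of 21 transcripts of these rows, 6 had another length there than in the deposited tables. They belonged to Zscan4b, Zscan4f, Dppa2 and Tmem92, so the shares of 75-base stretches describe the GENCODE transcripts.

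On simulated data with 200 changed genes, 85.5% were recovered for 3×KD in ESCs (24821 genes) and 77.5% in EpiLCs (24817 genes). The planted changes were all of a single size above the fold limit, in genes above a minimum count. Far fewer genes were changed than were called in the real comparisons. The rates therefore do not describe rows with few counts or changes near the fold limit. No pair of replicates matched within counting error (chi-square over its degrees of freedom 2.99 to 18.41).

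The genes and lists were chosen with earlier results of these data known. Named were the 9 genes, Dppa4, Duxf3, the Zscan4-ps rows, genes within 100 kb of a copy, the 6 closest patterns, the targeted genes and up to 6 called genes with the largest change per list and state at 1 CPM or more. Other settings tried were transcript-length offsets, DESeq2 1.42.0, no filter, filterByExpr, library size alone, upper-quartile factors, RLE factors, a replicate block, robust estimation, only the groups compared, Zscan4-ps rows in the sum, copies kept as rows, and each library left out.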

Additional observations from a re-analysis of the deposited data

Results flagged for a closer look

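The effect of 3×KD differed between ESCs and EpiLCs, by the interaction term of the fit across all genes (edgeR, adjusted p below 0.01). On the log2 scale it was larger in EpiLCs by 1.01 for the Zscan4 sum. For the single copies it was larger by 0.94 for Zscan4a, 1.18 for Zscan4b, 0.98 for Zscan4c, 0.99 for Zscan4d, 1.12 for Zscan4e and 0.94 for Zscan4f, which share reads and so are not separate results. The rows Zscan4-ps1, Zscan4-ps2 and Zscan4-ps3 differed by 1.04, 1.14 and 0.61. Zfp352 differed by 1.69, being lower in 3×KD ESCs. Dppa4 differed by 0.44.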

How the results depend on the processing

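No called result reversed, while 27 values called neither in the reported fit nor in the alternative changed sign. Over the alternatives other than leaving out a library, the Zscan4 sum changed by 0.18 to 0.23 (log2) under 3×KD in ESCs and by 1.16 to 1.27 in EpiLCs, and the difference between states was 0.96 to 1.08. Leaving out each library gave 0.18 to 0.24, 1.17 to 1.25 and 0.93 to 1.03. The count of the 9 genes called in ESCs was 1 in place of 2 with RLE factors, library size alone, filterByExpr and only the groups compared, and ranged from 1 to 2 when a library was left out, since Zscan4b lay on the fold limit. The other 2-cell-like genes called numbered 8 to 13 in ESCs and 13 to 18 in EpiLCs under those settings. Genes called for the difference between states numbered 2553 in the reported fit and 731 with transcript-length offsets, and the cause was not tested.

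The replicate block gave 0.21 in ESCs and 1.21 in EpiLCs for the Zscan4 sum and changed no call of the sum or of the counts of the 9 genes. Replicate numbers did not pair the libraries: the correlation of deviations was -0.143 to 0.113 for same-numbered libraries (18 pairs) and -0.151 to 0.184 for others. Depth limits the rows near 1 CPM, such as Zscan4-ps4, Trim43a and the neighbours of the cluster.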
